A study of Mus musculus with 2 samples.

Results

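The cells described here were 103 cells of the young library that had few mitochondrial transcripts, many transcripts of the ribosomal copy Rpl9-ps6, and transcripts of at least 2 of the 3 genes Twist1, Prrx1 and Fbln1. They made up 4.18% of the 2463 cells of that library (exact Clopper-Pearson interval 3.43% to 5.05%) and 7.94% of its 1297 low-mitochondrial cells (6.53% to 9.55%), of 3893 cells in both libraries. A low-mitochondrial cell had fewer than 100 unique molecular identifiers (UMIs, each standing for 1 captured transcript) per 10000 from mitochondrially encoded genes and at least 10 per 10000 from Rpl9-ps6. A member also had transcripts of fewer than 4 of the 5 mitosis genes Top2a, Ccnb1, Ube2c, Cenpf and Cks2. All of these values chose the members, so their levels are a description and support nothing further. Intervals cover counting error only, at 95%.

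The study profiled single cells of the microdissected dentate gyrus, a part of the hippocampus, from C57BL/6 mice. There was 1 library from mice of 3 months (young) and 1 from mice of 16 months (old). Both were labelled Mus musculus, with no other treatment or genotype named, and were made from papain-dissociated cells that excluded propidium iodide, with the version 3 kit of 10x Genomics for 3′ ends. The number of animals behind each library is not given in the sources used here, and with 1 library per age no p-value, standard error or test between ages was computed. The low-mitochondrial cells held 9720521 UMIs in the young library and 437597 in the old library, and all other cells held 6497038 and 7013909.

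Mesenchyme is loose connective tissue whose cells lie in a matrix they secrete, and it gives rise to bone, cartilage, dermis, meninges and vessel walls. Twist1, a basic helix-loop-helix factor, and Prrx1, a paired-type homeobox factor, are both known for their part in limb and craniofacial mesenchyme. Fbln1 encodes fibulin 1, a secreted glycoprotein of basement membranes and elastic fibres. In the adult brain, cells with such genes are known mainly from the meninges and around vessels.

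The libraries shared cell barcodes. Of the 103 members, 19 (18.4%) had a barcode that was also a cell of the old library, where 18 of them were low-mitochondrial and 4 met the whole rule. The old cell of a pair held 0.136 to 0.166 times as many UMIs as the young one, with a median of 0.153, so that median totals were 10154 and 1551 UMIs. For these 19 barcodes Twist1 had 130 UMIs in the young and 15 in the old library, Prrx1 37 and 4, and Fbln1 88 and 15. The rule found 10 cells in the old library (0.699% of 1430 cells, 0.336% to 1.28%), and all 10 barcodes were also present in the young library. All 262 low-mitochondrial barcodes of the old library were present in the young one as well. The old cells are therefore not used as a replicate. Whether the paired cells hold the same molecules was not tested here.

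The rule's ribosomal gene is shown first, because the organism behind these cells is uncertain. Rpl9-ps6 is a retrogene copy of Rpl9, which encodes a protein of the large ribosomal subunit, and GENCODE M21 lists it as protein coding. Their coding sequences have 579 bases each and differ at 1 (99.8% identity). The stretch from coding position 236 to 296, counted from 1 at the start codon, holds that base, which is in capitals. Rpl9 lies on the minus strand at chr5:65388573-65390991 and Rpl9-ps6 on the minus strand at chr19:32465973-32466551 (coding ends, GRCm38).
Rpl9: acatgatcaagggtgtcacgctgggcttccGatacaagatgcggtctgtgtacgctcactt
Rpl9-ps6: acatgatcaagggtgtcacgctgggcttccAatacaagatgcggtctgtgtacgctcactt
The members gave 5134 UMIs to Rpl9-ps6 and 2830 to Rpl9, so the copy took 64.5% of both (63.4% to 65.5%). Other low-mitochondrial cells gave it 63.4%, mural cells 1.5% (4 of 266 UMIs, as the 262 others fell on Rpl9) and microglia 0.731%.

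A second pair was not used by the rule and is less alike. Rpl39l and Rpl39, which encode a small protein of the large subunit, differ at 23 of 156 coding bases (85.3% identity), marked in capitals. Rpl39 lies on the minus strand at chrX:37082701-37085127 and Rpl39l on the plus strand at chr16:10174310-10174465 (coding ends, GRCm38).
Rpl39: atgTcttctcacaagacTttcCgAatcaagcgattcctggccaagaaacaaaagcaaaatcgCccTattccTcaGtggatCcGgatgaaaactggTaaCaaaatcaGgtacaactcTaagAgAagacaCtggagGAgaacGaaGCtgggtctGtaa
Rpl39l: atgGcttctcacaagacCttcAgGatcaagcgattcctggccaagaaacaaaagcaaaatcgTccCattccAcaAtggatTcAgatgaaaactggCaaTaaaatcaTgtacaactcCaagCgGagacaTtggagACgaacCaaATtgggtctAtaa
Rpl39l took 90.5% of the pair's UMIs in members (89.5% to 91.4%) and 89.9% in other low-mitochondrial cells. It took 0 of 237 UMIs in mural cells, which allows a share of up to 1.54%, and 0.186% in microglia. Rpl13a-ps1 took 98.9%, 98.9%, 6.25% and 2.01% of its pair with Rpl13a in the same order of cells. Across the 7 pairs examined the copy's share was higher in members than in both mural cells and microglia. For Rpl9-ps6, which the rule used, this was set in part by the choice of cells. Against the other low-mitochondrial cells the shares lay on both sides, with Rpl36a-ps1 at 22.7% against 22.0% and Rpl10l at 2.61% against 3.07%. Reads that fit a parent and its copy alike can be assigned to either, so these values describe the counts and not the transcription of the copies. Whether the members are mouse cells was not tested.

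**Figure D1:**
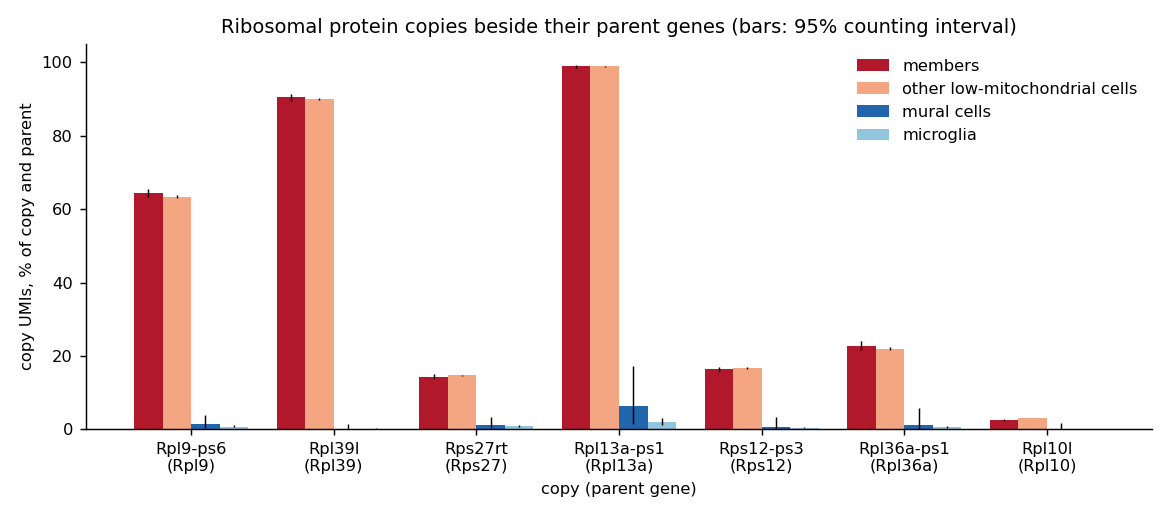
Share of UMIs assigned to each ribosomal copy out of copy and parent gene together (y axis, %), for 7 pairs (x axis, parent in parentheses) and 4 sets of cells of the young library; bars are shares and lines their exact 95% counting intervals. Rpl9-ps6 stands at 64.5% in members and 63.4% in other low-mitochondrial cells, and at 1.5% in mural cells and 0.731% in microglia. The rule used Rpl9-ps6 to separate these sets, so its shares are a description.

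Twist1 (chr12:33957671-33959829, plus strand, GRCm38) was the strongest of the 3 markers. Its 987 UMIs in members gave a level of 12.6 per 10000 (11.9 to 13.5), and single cells ranged from 0 to 28 UMIs with a median of 10.0. It was present in 91.3% of members. Other low-mitochondrial cells had 0.417 per 10000, mural cells 0.864, and microglia 0 UMIs. The other low-mitochondrial cells include 19 with at least 2 of the markers, left out by the mitosis limit. Prrx1 (chr1:163245119-163313710, minus strand) had 214 UMIs, or 2.74 per 10000, in 71.8% of members, with 0 to 10 UMIs per cell and a median of 1.00. Fbln1 (chr15:85205949-85286535, plus strand) had 490 UMIs, or 6.28 per 10000, in 94.2% of members, with 0 to 33 UMIs per cell and a median of 3.00. Fbln1 was the least restricted, with transcripts in 37.9% of the other low-mitochondrial cells, against 5.03% for Twist1 and 2.18% for Prrx1. In microglia, which should lack them, Prrx1 was present in 0.691% and Fbln1 in 0.461% of cells, at a median depth of 7570 UMIs against 7506 in members. The 10 rule cells of the old library had 27 UMIs of Twist1 (14.5 per 10000), 4 of Prrx1 (2.15) and 30 of Fbln1 (16.1).

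The marker limits had many cells close to them. All 3 markers were present in 59 members, Twist1 and Fbln1 alone in 29, Prrx1 and Fbln1 alone in 9, and Twist1 and Prrx1 alone in 6. In 14 members the rule rested on exactly 1 UMI of each of 2 markers. Just outside it, 487 low-mitochondrial cells had 1 marker, which was Fbln1 in 433, Twist1 in 43 and Prrx1 in 11. For Rpl9-ps6 the lowest member had 20.5 UMIs per 10000, and the highest cell outside the set that met the marker and mitosis limits had 8.68. For mitochondrial UMIs the ranges overlapped, as the highest member had 46.1 per 10000 and the lowest such outside cell 28.0. The mitosis limit left out 19 low-mitochondrial cells with at least 2 markers, 17 of which had all 5 mitosis genes. Their Twist1 level was 12.6 per 10000, equal to the members' at this precision, with 3.06 of Prrx1 and 7.22 of Fbln1. The same markers picked these 19 cells, so these levels are a description. Foxc1 (1.43 per 10000), Has2 (1.30) and Cdh11 (1.39), which the rule did not use, were also present in them, against 0.0958, 0.0445 and 0.0547 in the 411 cells with 1 marker and under 4 mitosis genes.

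**Figure D2:**
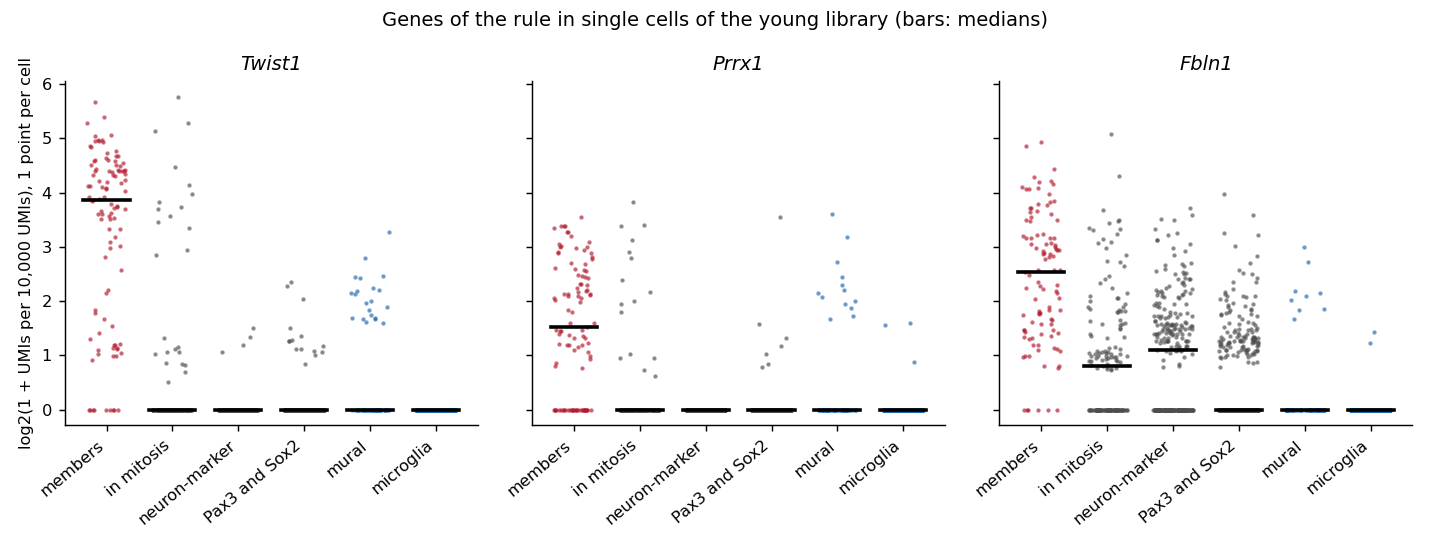
Level of Twist1, Prrx1 and Fbln1 in single cells of the young library (y axis, log2 of 1 plus UMIs per 10000) by set of cells (x axis); each point is 1 cell and each bar a median. Twist1 and Prrx1 have a median above 0 in the 103 members alone of the sets drawn, while Fbln1 reaches 54.8% of neuron-marker cells; these values chose the members.

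A comparison with the other 1194 low-mitochondrial cells of the same library shows what accompanied the markers. These 1194 cells include the 19 with at least 2 markers that the mitosis limit left out. Genes with at least 50 UMIs in both sets together were compared as log2 ratios of UMIs per 10000, with 0.1 per 10000 added to each level, and a gene is called higher or lower where that ratio reached 2-fold. Of 6204 genes, 80 (1.29%) were higher and 180 (2.9%) lower in members, and the median log2 ratio over all of them was -0.14. Median depths were close, at 7506 and 7260 UMIs per cell. The members were picked from these cells by their transcripts, so this is a description of 1 library without a replicate check. Without barcodes of the old library, 84 members against 928 other cells gave 82 genes higher and 234 lower, with log2 ratios of 3.55 for Foxc1, 3.52 for Has2 and -2.37 for Rfx4. With a pseudocount of 1 in place of 0.1, 17 genes were higher and 16 lower, and 15 of the named genes were under 2-fold, among them Hapln1, Fap, Pcdh18 and Col1a1.

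Transcription factors of mesenchyme were among the genes with the highest ratios. Foxc1, a forkhead factor needed for meninges and skull (chr13:31806633-31812476, plus strand), had 153 UMIs in members. Its level was 1.96 per 10000 (1.66 to 2.30) against 0.103 (0.0830 to 0.126), a 19.1-fold ratio (14.6 to 25). Nr2f1, an orphan nuclear receptor, had 835 UMIs and 10.7 per 10000 against 1.32, and was present in 90.3% of members and 40.9% of the others. Cells were also thinned to 3000 UMIs each, which left out 4 members and 72 of the others as too shallow. The shares of cells with Nr2f1 were then 83.8% and 23.9%, and those with Foxc1 29.3% and 2.41%. Of the 9 genes tested of the list of forkhead, T-box and other mesoderm factors, 4 were higher and 1 lower, with a median of 0.61. The other higher ones were Foxp2 (log2 ratio 1.25) and Nr2f2 (1.03), and the lower one was Ebf2 (-1.07). Tbx18, Foxf1, Foxf2 and Foxd1 had 0 UMIs in members. Of 9 meningeal fibroblast markers, Foxc1 among them, 5 had 0 UMIs in members, and 1 of the 2 tested was higher. They summed to 4.41 per 10000 in members and 2.93 in the other low-mitochondrial cells. No member had 3 or more of them, against 61.6% of mural cells.

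Among the homeobox factors, Alx1, a factor of the frontonasal mesenchyme, had 69 UMIs, present in 46.6% of members and 15.6% of the others (3.88-fold, 2.91 to 5.12). Msx1 had 23 UMIs, a log2 ratio of 0.82, and did not reach 2-fold on the scale used. Of the 3 genes of that list that were tested after leaving out Prrx1, 1 was higher. Most of the list was near 0, including Prrx2 with 1 UMI, Alx4 with 6, Meox2 with 7, and Dlx5 with 0. None of the 9 Hox genes in the table had a UMI in members, which allows up to 3 UMIs of 780249 for each. Among helix-loop-helix and epithelial-mesenchymal transition factors, 1 of 9 tested was higher and 2 lower (median 0.03). Tcf12, a dimer partner of Twist1, had a level of 2.67 against 1.16 per 10000, whereas the inhibitor Id4 had 1.000 against 3.74. Snai1 was at 0, Snai2 and Twist2 had 1 UMI each, and Zeb1 and Zeb2 were close to the other cells, with log2 ratios of -0.07 and 0.09.

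The matrix genes were led by fibrillar collagens and by hyaluronan. Of 5 fibrillar collagen genes tested 4 were higher and 0 lower (median 1.13). Col1a2, a chain of type I collagen (chr6:4504814-4541544, plus strand), had 458 UMIs, 5.87 per 10000 against 1.27, in 90.3% against 41.2% of cells. Col1a1, the other chain, had 114 UMIs and 1.46 against 0.293 per 10000 in 49.5% of members. Col2a1, known from cartilage, had 99 UMIs in 52.4% of members (log2 ratio 1.13), and Col5a2 37 UMIs (1.07). Col3a1, abundant in most fibroblasts, had 22 UMIs in 11.7% of members and 10 UMIs in the others, too few to pass the minimum.

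Of 8 proteoglycan and hyaluronan genes tested, 3 were higher and 0 lower (median 0.74). Has2, the synthase that makes hyaluronan (chr15:56665627-56694539, minus strand), had 109 UMIs in 34.0% of members and 56 in 2.43% of the others (22.3-fold, 16.0 to 31.4). Hapln1, which links hyaluronan to proteoglycans, had 60 UMIs and an 18.6-fold ratio (12.1 to 28.8). Vcan, a proteoglycan that binds hyaluronan, had 160 UMIs in 68.0% of members (2.69-fold). The small proteoglycans of mature fibroblasts were sparse, with 11 UMIs for Lum, 13 for Dcn and 22 for Bgn.

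Pcolce, an enhancer of procollagen cleavage, had 115 UMIs and 1.47 against 0.111 per 10000 (13.3-fold, 10.1 to 17.6), and Timp3, a metalloproteinase inhibitor, 35 UMIs and a log2 ratio of 1.58. These were the 2 higher genes of 12 tested for collagen processing, none of which was lower (median 0.17). The collagen chaperone Serpinh1 had a log2 ratio of 0.24. Fap, a surface protease of fibroblasts, had 40 UMIs in 26.2% of members against 1.26% of the others. Fn1, which encodes fibronectin, was 3.70-fold and the laminin chain Lamb1 3.38-fold higher, the 2 of 7 matrix glycoproteins that were. Apart from Fbln1 itself, none of 3 tested fibulin and fibrillin genes reached 2-fold in either direction.

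**Figure D3:**
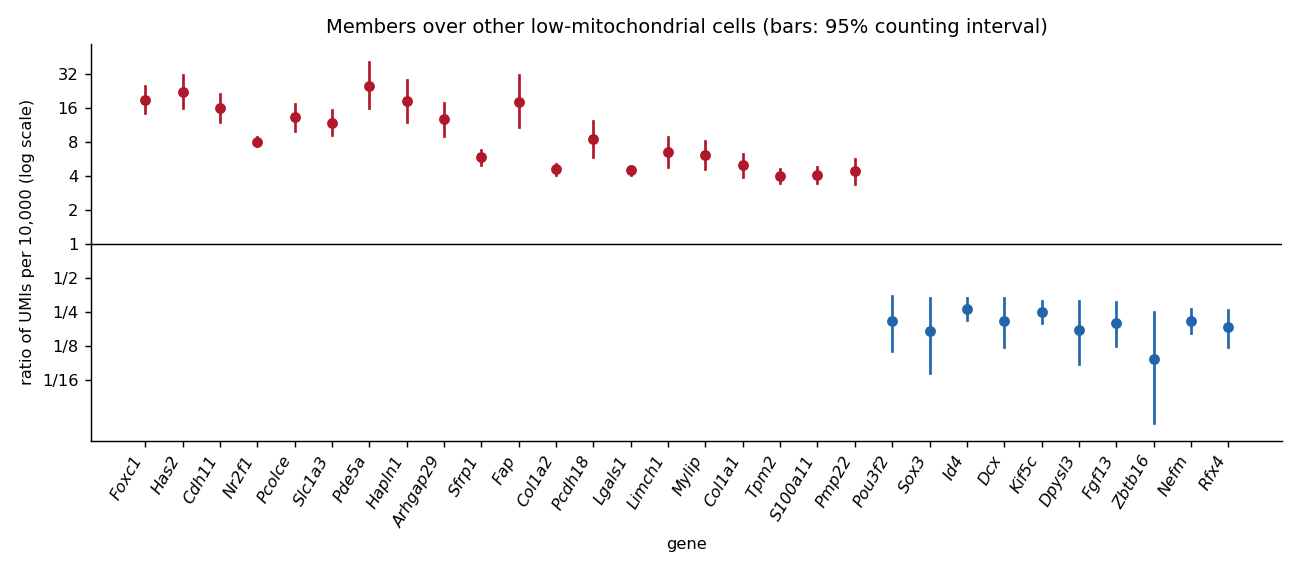
Ratio of UMIs per 10000 in the 103 members over the other 1194 low-mitochondrial cells (y axis, log scale), for the 20 genes with the highest and the 10 with the lowest log2 ratio under the naming rule (x axis); points are ratios without an added constant and lines their 95% counting intervals. Foxc1 stands at 19.1 and Has2 at 22.3, and Rfx4 at 0.183.

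Genes of the contractile and calcium-binding cytoskeleton were higher in part. Of 19 tested 7 were higher and none lower (median 0.44). Lgals1, a lectin, had 576 UMIs and 7.38 against 1.64 per 10000 (4.51-fold), in 78.6% of members. Tropomyosin Tpm1 had 855 UMIs (3.01-fold), Tpm2 251 (4.01-fold), and the calcium-binding S100a11 195 (4.10-fold). Vim, an intermediate filament of mesenchymal and progenitor cells alike, was present in all members and in 96.8% of the others, at 31.7 and 25 per 10000. For Actb, a cytoplasmic actin, the interval of the ratio held 1 (1.08-fold, 0.980 to 1.20).

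Among surface proteins, the 2 cadherins described here differed in opposite directions. Cdh11, the cadherin of mesenchyme (chr8:102632095-102785642, minus strand), had 127 UMIs and 1.63 against 0.101 per 10000, in 60.2% against 4.86% of cells (16.2-fold, 12.2 to 21.4). Cdh2, neural cadherin, had 106 UMIs and 1.36 against 3.53 per 10000, in 36.9% against 81.2% of cells. Of the 7 genes tested of this list, 2 were higher (Cdh11 and Alcam) and 2 lower (Cdh2 and Ncam1). Pcdh18, a protocadherin, was 8.55-fold and Slc1a3, a glutamate transporter known from astrocytes, 11.9-fold higher. Slc1a3 was the 1 higher gene of the 3 astrocyte markers tested, which with the rest of their list summed to 2.73 per 10000 against 1.15, and it was present in 63.6% of microglia.

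Signalling genes were mixed. Of 15 Wnt pathway genes tested 3 were higher and 3 lower (median 0.23). The secreted antagonist Sfrp1 had 269 UMIs and 3.45 against 0.585 per 10000 (5.89-fold), and Frzb, another antagonist, 26 UMIs in 20.4% of members (11.9-fold). Lef1, which acts in the nucleus, was 2.72-fold higher. Sfrp2, a relative of Sfrp1, went the other way at 0.718 against 2.04 per 10000, as did Wnt4 (log2 ratio -1.55) and the receptor Fzd3 (-1.44). Of 10 FGF pathway genes 3 were lower (Fgf8, Fgf18 and Spry2) and none higher (median -0.51). The TGF-beta (7 tested) and Hedgehog (5 tested) lists had no gene past 2-fold, and the BMP list (10 tested) had Bmp4 alone (log2 ratio 1.07). Pdgfra, the receptor of many fibroblasts and their precursors, had 25 UMIs in 21.4% of members and 19 in 1.51% of the others, below the UMI minimum. Pdgfrb had 0 UMIs in members.

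Neural genes were lower than in the other low-mitochondrial cells as a whole, but not absent. Of 12 neuron markers tested 9 were lower and none higher (median -1.5), and of 7 neural progenitor markers 6 were lower (median -1.29). For neuron markers pooled over cells this depended on the cells compared. They summed to 11.7 per 10000 in members and 38.0 in the other cells, which include the 270 neuron-marker cells at 147.0. Cells with both Pax3 and Sox2 had a sum of 11.9, and 2 of 8 tested were lower in members and none higher (median -0.10), where 2.54% of all genes were lower and 1.71% higher. Cells in mitosis had a sum of 14.0, and 2 of 6 tested were higher in members and 1 lower (median 0.29), where 2.08% of all genes were higher and 6.3% lower. Per cell, the median was 5.34 per 10000 in members, 9.24 in Pax3 and Sox2 cells and 11.9 in cells in mitosis. Cells with 3 or more of the markers made up 51.5%, 81.1% and 87.4% in that order. Of the sub-clusters of members described below, sub-cluster 1 had a pooled level of 5.16 and sub-cluster 2 one of 30.1. The highest cell of sub-cluster 2 had 266.4. Neural progenitor markers were lower for 6 of 6 tested genes against Pax3 and Sox2 cells, which were chosen on Sox2. Against cells in mitosis they were lower for 4 of 5. Sox2, a factor of neural stem cells, had 86 UMIs in 33.0% of members against 72.7% of the others. Rfx4, a factor of the neural tube, had 29 UMIs and 0.372 against 2.03 per 10000 (0.183-fold, 0.122 to 0.263), the lowest log2 ratio under the naming rule (-2.18). Stmn2, a microtubule protein of neurons, was still present in 60.2% of members at 5.02 per 10000 against 16.3, while 0 mural cells and 1.84% of microglia had it. Of 9 proliferation genes outside the rule 4 were lower and none higher (median -0.72), a contrast that the mitosis limit sets in part.

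Markers of pericytes, endothelium, immune and blood cells were scarce. The 8 smooth muscle markers were less so, with a sum of 4.13 per 10000 in members. They summed to 2.62 in the other low-mitochondrial cells and 47.7 in mural cells. Of 4 tested against the other low-mitochondrial cells, 1 was higher and 0 were lower (median 0.20). The 8 pericyte markers summed to 0.0384 per 10000 in members, and 5 had no UMI, against 328.7 in mural cells. That mural sum includes the genes by which the mural cells were chosen. Single members ranged from 0 to 1.65. The 10 endothelial markers summed to 0.0513, with Pecam1 and Cldn5 at 0, and the 10 microglia markers to 0.384, with P2ry12 at 0. No member had 3 or more of the pericyte, endothelial, microglia, oligodendrocyte, epithelial or erythroid markers. Erythroid markers summed to 0.269 per 10000, and Hbb-bs had 15 UMIs in 11.7% of members, against 22.4% of microglia. Among genes of later mesenchymal fates, bone and tendon markers were also scarce in members, with sums of 0.0769 and 0.128 per 10000. Skeletal muscle markers summed to 1.76 per 10000 in members and 1.32 in the other low-mitochondrial cells, and chondrocyte markers to 1.54 and 0.686. The skeletal muscle sum was 3.59 in neuron-marker cells, and single members had a median of 0 and a highest value of 41.3. Sp7 for bone, Scx for tendon and Myog for muscle were at 0, and Runx2 had 5 UMIs. Sox9 (48 UMIs, 31.1% of members) and Sox6 (47 UMIs, 33.0%), cartilage factors also known from neural crest and glia, were 2.93-fold and 3.08-fold higher than in the other cells. Tfap2b, a factor of neural crest, was present in 68.0% of members and 31.2% of the other cells, at 4.11 and 2.91 per 10000. Thinned to 3000 UMIs, it was present in 48.5% of members and 69.8% of neuron-marker cells. Sox10 had 0 UMIs in members, and none of the 3 neural crest and Schwann markers tested reached 2-fold against the other cells.

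The members fell into 2 sub-clusters when they were clustered alone, at resolution 0.5. Sub-cluster 1 held 78 cells, with all 3 markers in 58 of them, and sub-cluster 2 held 25, with all 3 in 1. Of the 14 members with exactly 1 UMI of each of 2 markers, 12 were in sub-cluster 2. Their Twist1 levels were 16.6 and 1.38 per 10000, so that 959 of 987 UMIs came from sub-cluster 1. Sub-cluster 2 was made of 16 cells with Twist1 and Fbln1, 8 with Prrx1 and Fbln1, and the 1 with all 3. Sub-cluster 1 was led by Has2 (44.9% against 0% of the other members), Pcolce (65.4% against 4.0%), Foxc1 (56.4% against 8.0%), Slc1a3 and Twist1. Nr2f1 was present in 98.7% and Col1a2 in 94.9% of its cells.

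Sub-cluster 2 did not match the mesenchymal label. Among its leading genes were Actc1, a cardiac actin (28.0% against 8.97% of the other members), Cntnap2, a neuronal adhesion protein (84.0% against 12.8%), Elavl2, a neuronal RNA-binding protein, and Lgi1. The skeletal muscle markers, which include Actc1, summed to 0.416 per 10000 in sub-cluster 1 and 5.56 in sub-cluster 2. Single cells of sub-cluster 2 had a median of 1.05 and a highest value of 41.3 for these markers. Cdh2 was present in 96.0% and Sox2 in 80.0% of the cells of sub-cluster 2, against 17.9% of sub-cluster 1 for both. These are the genes of the clustered cells, given as a description. No other name is given to these 25 cells. The summed level of fibrillar collagens and proteoglycans had a median of 20.9 per 10000 in sub-cluster 1 (3.47 to 55.9) and 7.70 in sub-cluster 2 (0 to 15.1). The sum of neuron and neural progenitor markers had medians of 4.97 (0.864 to 34.0) and 18.3 (7.79 to 273.2). The matrix sum was the larger in 75 of 78 cells of sub-cluster 1 and in 0 of 25 of sub-cluster 2. Median depths were 6840 and 8311 UMIs, and 10 and 9 cells had a barcode of the old library. Scrublet called none of the 103 members a doublet, and 37 cells in the library. The part of these single UMIs in the membership of sub-cluster 2 was not tested.

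**Figure D4:**
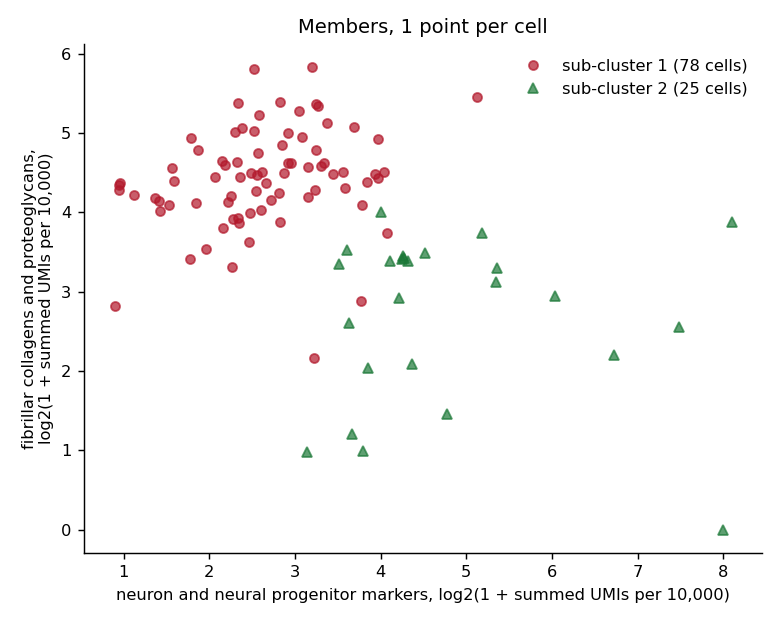
Summed level of fibrillar collagens and proteoglycans (y axis) against that of neuron and neural progenitor markers (x axis), both as log2 of 1 plus UMIs per 10000, in the 103 members; each symbol is 1 cell. The 78 cells of sub-cluster 1 lie high on the matrix axis (median 20.9 per 10000) and the 25 of sub-cluster 2 far along the neural axis (median 18.3).

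Without sub-cluster 2, the counts of the matrix and cytoskeleton lists against the other low-mitochondrial cells moved by at most 1 gene, and those of the neural lists stayed the same while their medians were lower. In the 78 cells alone, 4 of 5 fibrillar collagens (median 1.34), 4 of 8 proteoglycan genes (0.96), 3 of 7 matrix glycoproteins (0.27) and 8 of 19 cytoskeleton genes (0.56) were higher. Of the 3 collagens tested outside the fibrillar group, 0 were higher and 1 was lower (-0.32). Of 11 collagen processing genes 2 were higher (0.17), and none of 3 fibulin and fibrillin genes was (0.13). The 12 neuron markers had 9 lower (median -2.02) and the 7 neural progenitor markers 6 lower (-2.22). Over all tested genes the count of lower genes was 358 instead of 180, and that of higher genes 109 instead of 80. The list counts therefore stand beside more called genes than before, mainly lower ones, and are a description. This alternative was chosen after seeing the data, and the clustering that set sub-cluster 2 apart used these same transcripts. The shifts of the neural and matrix medians are therefore set in part by that split and are no check. Foxc1 had a log2 ratio of 3.74 instead of 3.34, Has2 3.61 instead of 3.20, and Rfx4 -3.81 instead of -2.18.

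**Figure D5:**
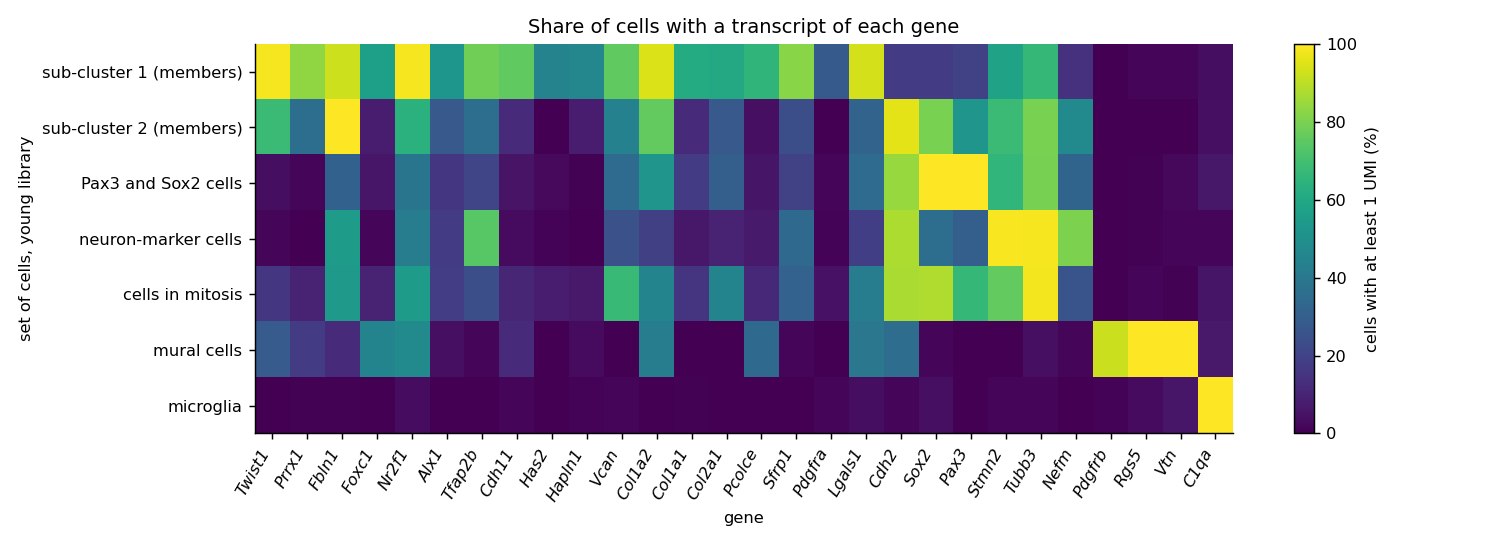
Share of cells with at least 1 UMI (colour, %) of 28 genes (x axis) in 7 sets of cells of the young library (y axis). Sub-cluster 1 is bright for Nr2f1 (98.7%) and Col1a2 (94.9%) and dark for Cdh2 (17.9%), sub-cluster 2 is bright for Cdh2 (96.0%), and Rgs5 and Vtn are present in all mural cells. Rgs5 and Vtn helped choose those mural cells.

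Within the low-mitochondrial cells, the genes whose deposited values followed Twist1 most closely were Prrx1 (Pearson r 0.78), Cdh11 (0.65), Foxc1 (0.59), Nr2f1 (0.58), Hapln1 (0.57), Fap (0.55), Has2 (0.54), Pcolce (0.53), Lgals1 (0.52) and Fbln1 (0.50). These are descriptions over 1297 cells of 1 library, which share their depth and preparation. After Twist1, the nearest to Prrx1 was Fap (0.55).

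Against the 3 named sets of low-mitochondrial cells, the same description was made with the rule genes in view. The 270 neuron-marker cells had at least 3 of 5 neuron markers, the 408 Pax3 and Sox2 cells had both genes, and the 159 cells in mitosis had at least 4 of 5 mitosis genes. Members were higher than neuron-marker cells for 87 of 3606 genes (2.41%) and lower for 402 (11.1%). Against Pax3 and Sox2 cells they were higher for 72 of 4220 (1.71%) and lower for 107 (2.54%), and against cells in mitosis higher for 70 of 3366 (2.08%) and lower for 212 (6.3%). Fibrillar collagens were higher for 4 of 4, 3 of 5 and 3 of 4 tested genes in that order. Twist1 was nearly absent from neuron-marker cells, with 4 UMIs, and from Pax3 and Sox2 cells, with 17 UMIs, but cells in mitosis had 317 UMIs (1.90 per 10000), of which the 19 cells named above held 309.

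The members were also compared with the library's 73 mural cells, the pericytes and smooth muscle cells of vessels, which had at least 3 of Rgs5, Vtn, Kcnj8, Abcc9 and Higd1b and were outside the low-mitochondrial cells. Of 2353 genes, 735 (31.2%) were higher and 691 (29.4%) lower in members, with a median log2 ratio of 0.18. Ribosomal protein genes took 41.2% of UMIs in members and 6.14% in mural cells. With these genes left out of the scaling, 1077 were higher and 560 lower, and the median was 0.81, so ratios near 0 in this contrast have no fixed direction. Mural cells were also shallower, with a median of 3360 UMIs.

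Some mesenchymal transcription factors were present in both sets. Foxc1 was at 1.96 per 10000 in members and 2.32 in mural cells, in 44.7% and 45.2% of cells (0.846-fold, 0.623 to 1.16). These shares are at unequal depth. After the thinning described above, which left out 4 members and 27 mural cells, Foxc1 was present in 29.3% of members and 43.5% of mural cells. Foxd1, with 123 UMIs in mural cells and 0 in members, was at least 126-fold lower on a floor of 3 UMIs over the set. Nr2f1 was 4.47-fold (3.44 to 5.89) higher in members, and after the same thinning it was present in 83.8% of members and 41.3% of mural cells. Of the rule's own genes, given as a description, thinned mural cells had Twist1 in 19.6% and Prrx1 in 15.2% of cells. Vtn, the most abundant mural gene of those named, had 5596 UMIs in mural cells and 1 in members, and Rgs5 had 1250 and 1. Both genes helped choose the mural cells, so their values are a description. Pdgfrb, the receptor that marks mural cells, was at least 398-fold lower and Crip1 at least 656-fold lower. Under the naming rule the 10 genes with the highest ratios were ribosomal copies, gene models with a Gm number, and Basp1, a membrane protein of growing neurites, with 1265 UMIs in 97.1% of members and 3 UMIs in mural cells (138-fold, 47.0 to 668). Rpl39l was at least 363-fold and Gm9844 at least 158-fold higher. The 13 mitochondrially encoded genes, which the rule used, summed to 8.57 per 10000 in members and 823.2 in mural cells.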

How the data were processed

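Both libraries came in 1 deposited table of 17592 genes (columns) by cell (rows). The authors deposited natural log values, log(1 + x) with x in UMIs per 10000 per cell; this unit was read from the numbers. Per the submitters' processing notes, Cell Ranger 5.0.0 and the mm10 build were used. How cells were filtered before deposit is not stated in the labels. Each cell's step for a single UMI was found after undoing the log; 100% of values above 0 were whole UMIs to within 0.01, and these were summed over each set of cells. Doublets were called with Scrublet and kept. Members were clustered with scanpy 1.11.5 (2000 variable genes, 20 principal components, 15 neighbours, Leiden with igraph 0.11.9) in Python 3.11.15. Intervals used scipy 1.17.1, tables pandas 2.3.3, and plots matplotlib 3.10.9.

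Share intervals are exact Clopper-Pearson, level intervals exact Poisson, and ratio intervals exact conditional binomial. The UMI minimum of 50, the pseudocount of 0.1 and the 2-fold limit were used in each comparison. On simulated counts, 100% of genes planted 4-fold higher or lower against the other low-mitochondrial cells were called. Against mural cells 100% of the higher and 51.0% of the lower ones were, the rest falling below the UMI minimum. Changes were planted only in the more abundant genes, with counting error alone and well past the 2-fold limit. The simulation therefore checks the calling step and does not cover genes at lower levels or differences between cells. Genes named are those of the rule, the 20 highest and 10 lowest against the other low-mitochondrial cells and 10 each way against mural cells, by log2 ratio among genes in at least 20% of cells, the leading genes of sub-clusters, the genes most like the markers, and genes of 41 lists. The members, lists and sets were chosen with earlier results of these data known. Gene positions are from GENCODE M21.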

Additional observations from a re-analysis of the deposited data

How the results depend on the processing

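No paired analysis was possible because each age has 1 library. Requiring all 3 markers left 59 members and gave 381 genes lower than in the other low-mitochondrial cells. With a pseudocount of 1 in place of 0.1, 17 genes were higher and 16 lower than in those cells and 381 higher than in mural cells. With at least 200 UMIs per gene, 39 were higher than in the other low-mitochondrial cells, and 359 higher and 109 lower than in mural cells; with at least 1 UMI, 1245 were higher and 5026 lower than in mural cells. Leaving out sub-cluster 2 gave 358 lower, and clustering at resolution 1 gave 5 sub-clusters, with 18 of the 25 cells of sub-cluster 2 in one and 7 in another. Leaving out barcodes of the old library gave 82 higher and 234 lower than in the other low-mitochondrial cells; it was not run against mural cells, of which fewer than 5 would be left. Thinned to 3000 UMIs, 73 cells met the rule, 67 of them members, and 4 members were too shallow. Of 480 values for the 50 named genes, 465 kept their direction and stayed past 2-fold, 15 kept their direction but not 2-fold, all with a pseudocount of 1 (Pde5a, Hapln1, Arhgap29, Fap, Pcdh18, Limch1, Mylip, Col1a1, Pmp22, Zbtb16, Fgf13, Dpysl3, Dcx, Sox3 and Pou3f2), and none was reversed. The 50 genes were named for the most extreme ratios in these same data. Vtn, Rgs5 and Higd1b also helped choose the mural cells. Staying past 2-fold was therefore favoured by the choice of genes, and these counts are a description. Changing the UMI minimum to 200 or 1 alters which genes are tested but not a gene's ratio. Values under these 2 settings could therefore not move and are no check, and genes below the minimum were counted too. Over the alternatives other than a pseudocount of 1, the log2 ratio of Foxc1 ran from 2.60 to 3.86. That of Has2 ran from 2.28 to 3.80 and that of Rfx4 from -3.81 to -2.18. Leaving out sub-cluster 2 and scaling without ribosomal protein genes were chosen after seeing the data.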

Other observations

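A few transcripts stood high in the members through single cells, and were looked at after their values were seen. Sst, which encodes the peptide somatostatin, had 751 UMIs, of which 392 and 346 came from 2 cells of sub-cluster 2 (98.3% together). The neuronal factor Neurod1 had 48 UMIs in 5 members, and the 2 highest cells, both of sub-cluster 2, held 33 of them. Actg2, a smooth muscle actin, was spread more evenly, with 54 UMIs in 17 members, a highest cell of 10 UMIs, and none in sub-cluster 2. It was 22.1-fold higher (13.8 to 36.2) than in the other low-mitochondrial cells, while the smooth muscle gene Tagln had 0 UMIs in members.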
